A study of Mus musculus with 6 samples.

Results

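Enzymes by which tumor cells can make immunosuppressive small molecules were examined in CT26, a mouse colon carcinoma line of BALBc origin. The genes were chosen by symbol: 5 of prostaglandin metabolism (Ptgs1, Ptgs2, Ptges, Ptges2 and Hpgd), 2 of adenosine production (Nt5e and Entpd1) and 3 of amino-acid breakdown (Ido1, Arg1 and Arg2). All 10 were found among the 53801 genes of the deposited tables. RNA-seq was available for 3 groups of 2 libraries each (replicates A and B): the parental line, which was bulk barcoded CT26 recovered from tumors to account for selection during engraftment, and lines B04 and B64, which had resisted immune checkpoint blockade (ICB) and are labelled anPD1-resistant. Each resistant line is a clone, grown from 1 cell by limiting dilution of tumor-derived, puromycin-selected CT26, so a difference from the parental line is a difference between that clone and a mixed population. The labels give all 3 groups the same cell line, strain and growth medium and name no treatment. The labels describe tumors and the study's methods describe cells cultured in RPMI in duplicates, with no account of what the letters A and B share, so p-values measure the spread between these duplicates, which may be technical.

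Prostaglandin synthesis starts when a phospholipase frees arachidonic acid from membranes. The cyclooxygenases, encoded by Ptgs1 (usually constitutive) and Ptgs2 (usually inducible by growth factors and inflammatory signals), convert it to prostaglandin H2, from which terminal synthases such as those of Ptges and Ptges2 make prostaglandin E2, while the dehydrogenase of Hpgd inactivates the product. Extracellular adenosine arises when CD39 (Entpd1) and then CD73 (Nt5e) remove phosphates from ATP and AMP. IDO1 (Ido1) consumes tryptophan and the arginases (Arg1, Arg2) consume arginine, and each of these routes is known to restrain T cells in tumors.

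The finding turned on 3 genes, Ptgs1, Ptgs2 and Ptges, and their promoter windows are shown because these genes differed between the lines. Ptgs1 and Ptges were higher in B04 than in the parental line, whereas Ptgs2 was lower there. RefSeq windows on GRCm38.p6 were matched by symbol for 7 of the 10 genes (not for Ido1, Arg1 or Arg2). Each runs 5′ to 3′ from 250 bases before the annotated start to 50 bases after it, at chr2:36230176-36230475 (plus strand), chr1:150099781-150100080 (plus strand) and chr2:30903248-30903547 (minus strand). Capitals mark matches to 6 motifs searched on both strands: TATAAA (the box bound by TBP), CACGTG (E-box), CGTCA (core of the cyclic-AMP response element), GGGCGG (GC box), GAAA followed after any 2 bases by GAAA (core of the interferon-stimulated response element) and AGAACA (half-site of the glucocorticoid receptor).
Ptgs1: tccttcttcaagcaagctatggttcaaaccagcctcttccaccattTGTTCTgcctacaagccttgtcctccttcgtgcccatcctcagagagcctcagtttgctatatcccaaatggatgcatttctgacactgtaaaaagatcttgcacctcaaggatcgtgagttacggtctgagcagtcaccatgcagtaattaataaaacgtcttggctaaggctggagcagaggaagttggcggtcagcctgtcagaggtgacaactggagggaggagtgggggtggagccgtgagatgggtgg
Ptgs2: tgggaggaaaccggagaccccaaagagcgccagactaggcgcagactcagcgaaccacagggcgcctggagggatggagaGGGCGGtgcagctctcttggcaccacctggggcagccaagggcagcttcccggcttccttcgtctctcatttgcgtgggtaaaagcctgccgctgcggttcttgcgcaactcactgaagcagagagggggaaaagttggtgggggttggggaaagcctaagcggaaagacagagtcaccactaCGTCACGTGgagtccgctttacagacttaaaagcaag
Ptges: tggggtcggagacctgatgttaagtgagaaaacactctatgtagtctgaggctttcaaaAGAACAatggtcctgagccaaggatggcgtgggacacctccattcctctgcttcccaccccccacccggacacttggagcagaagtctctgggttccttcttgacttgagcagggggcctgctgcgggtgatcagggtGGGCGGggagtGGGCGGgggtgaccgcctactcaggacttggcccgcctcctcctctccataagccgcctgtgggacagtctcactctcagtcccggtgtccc
The Ptgs2 window held a CGTCA match at position 264 that overlapped a CACGTG match at position 267, and a GC box at position 81, counting from 1 at the first base of the window. The Ptges window held 2 GC boxes, at positions 198 and 209, and a receptor half-site at position 60. The RefSeq start used for Ptges lies inside the gene span given below (30889471 to 30929863, minus strand), not at its upstream end. The Ptgs1 window held only a receptor half-site, at position 47. None of these 3 windows held TATAAA or an interferon-stimulated response element core by these letters. Among 32851 promoter windows of this length, 7.15% held CACGTG, 20.8% CGTCA, 35.7% GGGCGG, 19% AGAACA, 13.6% TATAAA and 3.44% the interferon-stimulated response element core. The windows were 50.7% (Ptgs1), 59.3% (Ptgs2) and 60% (Ptges) G and C, against a median of 52.7% over all windows.

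CT26 cells expressed 4 of the 10 enzyme genes, all of them prostaglandin synthases: Ptgs2, Ptgs1, Ptges and Ptges2. The other 6 were at most 4 counts in any library, out of library totals of 19409204 to 23472012 expected counts. TPM, a transcript level scaled by gene length, is the scale used here to compare genes. Averaged over the 6 libraries, Ptgs2 had 109.7 TPM and Ptgs1 86.7 TPM, with 11.7% and 14.5% of the 11153 genes at 1 TPM or more lying above them. Ptges had 24.9 TPM and Ptges2 22.3 TPM, with 41.8% and 45.1% of these genes above them.

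**Figure D1:**
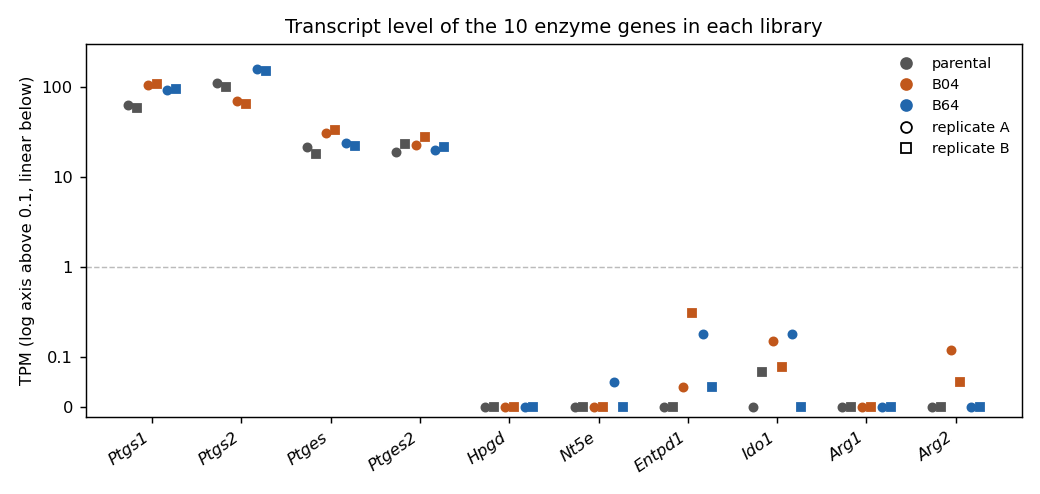
TPM of the 10 enzyme genes (log axis above 0.1, linear below), with color for the line and a circle or square for replicate A or B; the dashed line marks 1 TPM. Ptgs1, Ptgs2, Ptges and Ptges2 sit between 18.1 and 159.7 TPM in every library, and the other 6 genes do not exceed 0.31 TPM.

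Neither ectoenzyme of the adenosine route was expressed. Nt5e (chromosome 9, 88327197 to 88372092) had 3 counts in B64 replicate A and 0 in the other 5 libraries. Entpd1 (chromosome 19, 40612366 to 40741602) was at 0 in the parental line, while B04 showed 1 and 2 counts and B64 showed 2 and 1. The prostaglandin-degrading gene Hpgd (chromosome 8, 56294585 to 56321043) and the arginase gene Arg1 (chromosome 10, 24915221 to 24927484) had 0 counts in all 6 libraries. A count of 0 allows up to 3 counts, which is 0.128 to 0.155 CPM (counts scaled to the library total) in these libraries and covers counting error only, since PCR copies are not independent molecules.

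Arg2, the mitochondrial arginase (chromosome 12, 79130777 to 79156301), had 3 and 1 counts in B04 and 0 in the 4 other libraries. Its 3′ end overlaps Vti1b on the opposite strand, which had 1203 to 1530 counts, and the libraries are not described as stranded. Ido1 (chromosome 8, 24584136 to 24597009) had 0 and 2 counts in the parental line, 4 and 2 in B04 and 4 and 0 in B64. These levels were too low for a fold change or a test, and a difference between lines was not detectable at this depth.

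To ask whether the resistant lines differed in the expressed enzymes, expected counts were scaled by library size factors and tested with DESeq2 over all genes (Benjamini-Hochberg adjusted p under 0.05 counted as called). Of the 4 expressed members, 3 were called between B04 and the parental line, 2 higher and 1 lower, where 24.1% of all 13218 genes tested were called (11.2% higher, 12.9% lower). Between B64 and the parental line 2 were called, both higher, against 16.3% of all genes (8.87% higher, 7.45% lower). Between B64 and B04 2 of 4 were called, 1 in each direction, against 24.3% of 12855 genes (13.1% higher, 11.1% lower). Calls of at least 2-fold made up 3.56%, 2.74% and 3.41% of genes in these comparisons, and for members they numbered 0, 0 and 1. Counts of the lines compared did not overlap for 65%, 61.4% and 67.1% of all genes, so a lack of overlap between 2 libraries and 2 libraries is common. The median log2 fold change of these 4 was 0.32 in B04 and 0.39 in B64, where the median of all genes tested was 0.00 in each. All 4 were expressed in every line, so none was tested because of a single group. The comparisons of B04 and B64 with the parental line share the parental libraries.

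Ptgs2, the inducible cyclooxygenase gene (ENSMUSG00000032487, chromosome 1, 150100031 to 150108227), moved in opposite directions in the resistant lines. Normalised counts were 9013 and 8490 for the parental line, 5593 and 5058 for B04, and 12751 and 12281 for B64. The 3 lines did not overlap, with B04 lowest and B64 highest. Relative to the parental line Ptgs2 fell by 0.72 on the log2 scale in B04 (SE 0.06, adjusted p = 5.41e-27), to 0.609 of the parental level. It rose by 0.52 in B64 (SE 0.06, adjusted p = 2.43e-14), to 1.43 times that level. Compared directly, Ptgs2 was 2.35-fold higher in B64 than in B04 (log2 difference 1.23, SE 0.06, adjusted p = 1.27e-80), the only expressed member to differ by 2-fold or more in any of the 3 comparisons. This difference was called under all 18 alternatives tried, over which it ranged from 1.16 to 1.31.

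**Figure D2:**
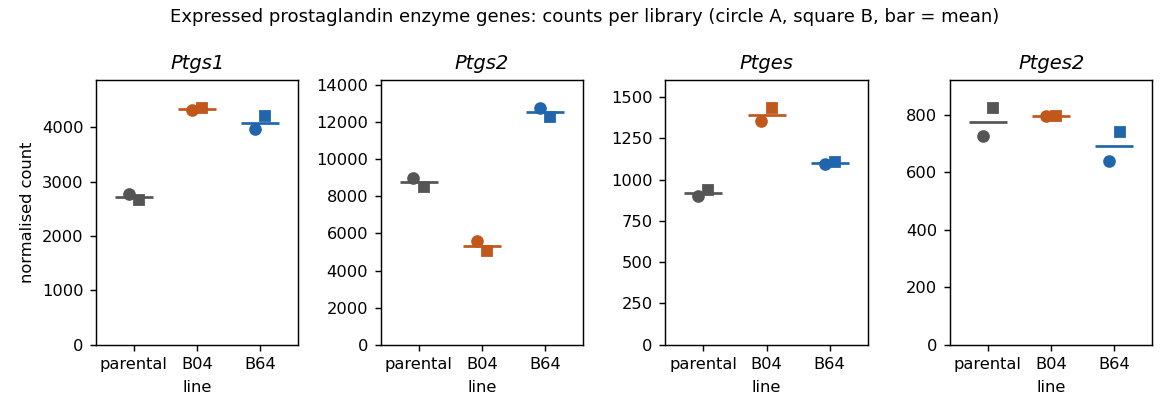
Normalised count (expected count divided by the size factor) of the 4 expressed enzyme genes in each line, with a circle for replicate A, a square for replicate B and a bar for the mean of the 2 libraries; each axis starts at 0. Ptgs2 is lowest in B04 and highest in B64, Ptgs1 is higher in both resistant lines, Ptges is highest in B04, and Ptges2 overlaps between each resistant line and the parental line.

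Ptgs1, the constitutive cyclooxygenase gene (ENSMUSG00000047250, chromosome 2, 36230426 to 36252272), was higher in both resistant lines. Parental libraries had normalised counts of 2770 and 2665, those of B04 had 4314 and 4348, and those of B64 had 3958 and 4204. Every resistant library lay above both parental libraries. The rise was 1.59-fold in B04 (log2 fold change 0.67, SE 0.07, adjusted p = 1.12e-21) and 1.5-fold in B64 (0.59, SE 0.07, adjusted p = 2.97e-16). The resistant lines did not pass the threshold against each other (log2 difference of B64 from B04 -0.09, 95% interval -0.21 to 0.04, adjusted p = 0.406). A locus on the opposite strand, Gm43621, lies within Ptgs1 and had at most 10 counts.

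The cyclooxygenase transcripts were divided differently in B04. Of the summed Ptgs1 and Ptgs2 TPM, Ptgs2 made up 63.7% and 63.1% in the parental line and 63.2% and 61.6% in B64, but 40.4% and 37.8% in B04. The order of the genes was reversed in B04, where Ptgs1 had 103.9 and 106.7 TPM and Ptgs2 70.5 and 64.8 TPM. The summed TPM was 174.9 and 159.3 in the parental line, 174.4 and 171.5 in B04, and 252.6 and 245.8 in B64. The B04 sums thus lay within the range of the parental libraries and both B64 sums lay above it. These sums and shares were chosen after the values were seen and were not tested.

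**Figure D3:**
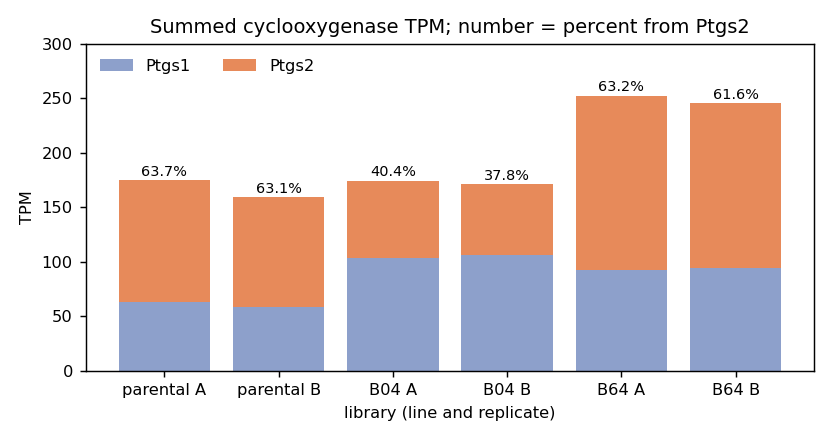
TPM of Ptgs1 and Ptgs2 stacked for each library; the number above each bar is the percent of the sum that came from Ptgs2. The share is 37.8% to 40.4% in B04 and 61.6% to 63.7% in the other 4 libraries, and the total is highest in B64.

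Ptges, which encodes the inducible microsomal prostaglandin E synthase (ENSMUSG00000050737, chromosome 2, 30889471 to 30929863), was highest in B04. The parental line had normalised counts of 901 and 939, against 1353 and 1432 for B04 and 1093 and 1104 for B64. The B04 libraries lay above all others, and the B64 libraries lay between the other lines. The rise in B04 was 1.51-fold (log2 fold change 0.60, SE 0.10, adjusted p = 1.9e-08). In B64 the value was 0.26 (95% interval 0.06 to 0.45, adjusted p = 0.0564), which did not pass the threshold in DESeq2 but did in edgeR's quasi-likelihood test (adjusted p = 0.017). Ptges was lower in B64 than in B04 by 0.34 (SE 0.10, adjusted p = 0.00286), a call that was lost without B04 replicate B (-0.30, adjusted p = 0.113), without B64 replicate A (-0.33, 0.0868) or without B64 replicate B (-0.35, 0.0688).

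Ptges2, which encodes another membrane-associated prostaglandin E synthase (ENSMUSG00000026820, chromosome 2, 32395896 to 32405772), was not called in any comparison. Parental counts were 727 and 823 after normalisation, with 797 and 796 for B04 and 640 and 740 for B64, and the B04 counts lay between those of the parental line. The log2 fold change was 0.04 in B04 (95% interval -0.20 to 0.28, adjusted p = 0.885) and -0.17 in B64 (95% interval -0.41 to 0.08, adjusted p = 0.441).

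Several properties of the libraries varied with the lines. Endothelial and erythroid transcripts were few: endothelial markers summed to at most 0.1 TPM over 6 genes and erythroid markers to at most 2.69 TPM over 6 genes. Of 16 leukocyte markers, 8 to 10 were at 0 in each library, and Ptprc, which encodes the pan-leukocyte antigen CD45, did not exceed 0.01 TPM. The summed leukocyte list was 24.3 and 25.9 TPM in the parental line, 34.6 and 34.8 in B04 and 60.2 and 60.1 in B64, nearly all of it Cd68 and Cd14. Cd79a of this list went the other way, with 8 and 14 counts in the parental line, 2 and 2 in B04 and 0 in both B64 libraries. The epithelial genes Epcam, Cdh1 and Vil1 did not exceed 0.06 TPM, whereas Krt18 and Krt20 were above 9 TPM in every library. The list of 8 summed to 22.4 and 24.2 TPM in the parental line, 25.4 and 24.3 in B04 and 45.7 and 48.2 in B64, nearly all of it Krt18 and Krt20. Cdx2 went the other way, with 35 and 24 counts in the parental line and 0 in every B04 and B64 library. The fibroblast list summed to 342 to 394 TPM, of which Col1a2 made up 316 to 359. Within it Dcn had 25 and 25 counts in the parental line, 1 and 0 in B04 and 4 and 3 in B64. Pdpn did not follow Dcn, with mean TPM of 26.0 in the parental line, 22.4 in B04 and 31.0 in B64. Mean TPM of Col1a2 was 338, 320 and 346 in the same order, and Lum and Fap had at most 2 counts in any library. Pdgfra had mean normalised counts of 170 in the parental line, 92.8 in B04 and 176 in B64. Its TPM was 2.78 and 3.32 in the parental line, 2.02 and 1.94 in B04 and 1.63 and 3.09 in B64. The part of these transcripts in the differences between lines was not tested. Fewer cells of a type and less RNA per cell cannot be told apart in such bulk libraries. RNA fragments, measured as RSEM gene length minus effective length, were long in the parental libraries and B04 replicate A (271.8 to 277.3 bases) and short in B04 replicate B and B64 (220.8 to 246.2 bases). Among long-fragment libraries only, the log2 ratio of B04 to parental was -0.65 for Ptgs2, 0.67 for Ptgs1 and 0.56 for Ptges. Among short-fragment libraries only, that of B64 to B04 was 1.31 for Ptgs2, -0.09 for Ptgs1 and -0.38 for Ptges. With a block for fragment length (long or short), the calls of Ptgs1, Ptgs2 and Ptges were those given above, with a Ptgs2 difference of -0.65 in B04 and 0.66 in B64 (adjusted p = 3.56e-14 and 6.63e-07). Neither class holds both parental and B64 libraries, so these are compared only by way of B04 under the block.

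The genes with the count pattern most like that of Ptgs2 over the 6 libraries were Isg15, Grem1 and Nceh1. Likeness was the root mean square difference of centred log2 counts among 10475 genes with a mean normalised count of at least 50, and it was 0.044, 0.058 and 0.076. Isg15, an interferon-induced ubiquitin-like protein gene, had normalised counts of 1986 and 1966 in the parental line, 1271 and 1213 in B04 and 2807 and 2858 in B64. Grem1, which encodes a secreted antagonist of bone morphogenetic proteins, had 5198 and 4889, 3176 and 3165, and 7590 and 7723 counts in the same order. Nceh1, which encodes a cholesterol ester hydrolase, had 1258 and 1199, 752 and 656, and 1538 and 1599. The likeness describes 6 libraries of 3 lines and was not tested.

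The surrounding routes were described with a list of 79 genes, of which 27 were at most 3 counts in every library and 43 could be tested. Between B04 and the parental line 16 of 43 were called (37.2%, against 24.1% of all genes), 9 higher and 7 lower, with a median log2 fold change of 0.00. Between B64 and the parental line 16 of 43 were called (37.2%, against 16.3%), 11 higher and 5 lower, with a median of 0.15. Between B64 and B04 19 of 42 were called (45.2%, against 24.3%), 13 higher and 6 lower in B64. The median log2 fold change between B64 and B04 was 0.05. Under the block for fragment length 5, 3 and 11 genes were called, of which 5, 3 and 10 were among the calls above. The share of all genes called under that block was not computed. Whether calls fell more on this list than among all genes was therefore not tested.

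**Figure D4:**
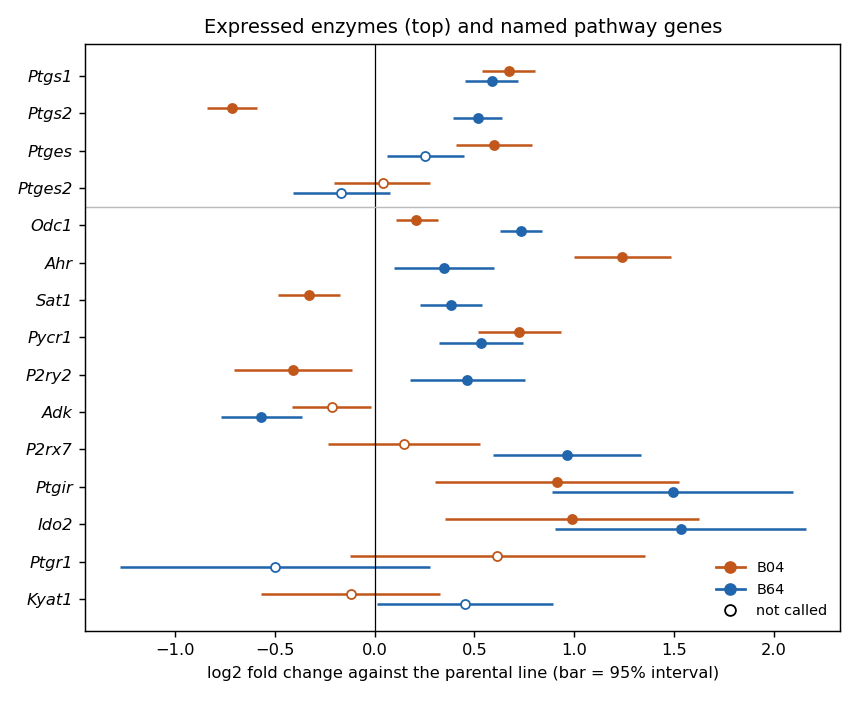
Log2 fold change against the parental line with its 95% interval for the 4 expressed enzyme genes (above the grey line) and the 11 named genes of the surrounding routes, with color for the resistant line and open circles where DESeq2 did not call the gene. Ptgs2, Sat1 and P2ry2 were called on opposite sides of 0 in B04 and B64, and both calls of P2ry2 and that of Sat1 in B64 did not hold under all alternatives.

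In prostaglandin release and synthesis, 7 of 13 further genes could be tested. Against the parental line 4 were called in B04, 2 in each direction, and 3 in B64, 2 higher and 1 lower, while 2 were higher in B64 than in B04. None of these met the rule for naming genes, and the called ones are named here after their values were seen. Pla2g4a, the cytosolic phospholipase A2 gene that supplies arachidonic acid, had 95.5 to 123.9 TPM. It was higher in B64 than in B04 by 0.36 on the log2 scale (SE 0.06, adjusted p = 1.59e-08) and than in the parental line by 0.28 (adjusted p = 5.37e-05, but 0.429 under the fragment-length block), and was not called between B04 and the parental line (-0.09, adjusted p = 0.326). Pla2g6, another phospholipase A2 gene, was called higher in B04 (0.37, SE 0.15, adjusted p = 0.047) and not in B64 (0.22, adjusted p = 0.388), and the B04 call was lost under 15 of 18 alternatives, leaving out any library among them (adjusted p from 0.109 to 0.331). Ptges3, which encodes a co-chaperone also described as the cytosolic prostaglandin E synthase, was called lower in B04 than in the parental line (-0.20, SE 0.06, adjusted p = 0.00603) and higher in B64 than in B04 (0.18, SE 0.06, adjusted p = 0.0167). The first of these calls was lost without parental replicate A (0.0526), parental replicate B (0.0633) or B04 replicate A (0.121) and the other without B04 replicate A (0.206), B04 replicate B (0.0714) or B64 replicate B (0.392), and both were lost under the fragment-length block (0.0571 and 0.24).

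The remaining calls on this list were of 2 genes that were tested only through the lines in which they were high, so their counts are given as a description. Ptgds, which encodes a prostaglandin D synthase, had 0 and 3 counts in the parental line, 42 and 34 in B04 and 18 and 32 in B64. Pla2g5, a secreted phospholipase A2 gene, had 18 and 23 counts in the parental line, 1 and 0 in B04 and 0 in both B64 libraries. Ptgds was thus at the 3-count floor in the parental line and Pla2g5 in both resistant lines. Among genes of prostaglandin transport, Abcc4, which exports prostaglandins, was also outside the naming rule. It was higher in B64 than in the parental line by 0.49 (SE 0.07, adjusted p = 2.99e-10), and its value in B04 was 0.00 (adjusted p = 0.998).

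Of 9 prostanoid receptor genes, 2 were abundant enough to test, Ptger1 and Ptgir. The prostaglandin E2 receptor genes Ptger2, Ptger3 and Ptger4 had at most 3 counts in any library. Ptger1, also a prostaglandin E2 receptor gene, had 12.9 to 31.2 counts and was not called in any comparison. Its log2 fold change against the parental line was 0.002 in B04 (adjusted p = 0.999) and -0.047 in B64 (adjusted p = 0.981). Ptgir, which encodes the prostacyclin receptor, had normalised counts of 65.8 and 48.6 in the parental line, 106 and 110 in B04 and 186 and 137 in B64. It was 2.82-fold higher in B64 than in the parental line (log2 fold change 1.49, SE 0.31, adjusted p = 2.8e-05, with 1.44 and 0.354 under the fragment-length block). In B04 its value was 0.92 (SE 0.31, adjusted p = 0.0174), and the call was lost without parental replicate B (0.71, adjusted p = 0.254), B04 replicate A (0.94, 0.132), B04 replicate B (0.89, 0.17) or B64 replicate A (0.91, 0.0547), and under the fragment-length block (0.89, 0.204). Ptgr1, which encodes a prostaglandin reductase, was lower in B64 than in B04 (-1.12, SE 0.39, adjusted p = 0.021) at 44.2 against 96.1 mean normalised counts, and the adjusted p was 0.05 or more when any library except B64 replicate B was left out (0.05 to 0.37).

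In the adenosine route, 2 of 7 further genes of adenosine production could be tested and neither was called, and the 4 adenosine receptor genes had at most 10 counts in any library. Adk, the kinase that removes adenosine inside cells, fell by 0.57 on the log2 scale in B64 relative to the parental line (SE 0.10, adjusted p = 1.24e-06), with values of 1296 and 874 mean normalised counts in the parental line and B64, and it was not called by limma on log2(TPM + 1) (-0.49, adjusted p = 0.139). Its lower level in B64 than in B04 (-0.35, adjusted p = 0.00451) was lost without B04 replicate B (-0.29, 0.155) or B64 replicate B (-0.29, 0.179). P2rx7, a receptor for extracellular ATP, had normalised counts of 188 and 182 in the parental line, 213 and 196 in B04 and 345 and 376 in B64. It rose in B64 by 0.96 (SE 0.19, adjusted p = 9.56e-06) and was higher there than in B04 by 0.82 (SE 0.19, adjusted p = 0.000153). The rise against the parental line was of similar size under the fragment-length block (1.08) and by limma on log2(TPM + 1) (0.99) but was not called there (adjusted p = 0.155 and 0.0533).

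The nucleotide receptor gene P2ry2 was higher in B64 than in B04 by 0.87 (SE 0.15, adjusted p = 1.06e-07), though not by limma on log2(TPM + 1) (adjusted p = 0.0776). Against the parental line its values were -0.41 in B04 (adjusted p = 0.0311) and 0.46 in B64 (adjusted p = 0.0135), and neither call held under all alternatives. In B04 the difference shrank to -0.10 with an effective-length offset (adjusted p = 0.832) and to -0.039 by limma on log2(TPM + 1) (adjusted p = 0.914), with a mean of 9.36 TPM in the parental line and 9.24 TPM in B04. Under the fragment-length block the values were -0.46 in B04 (adjusted p = 0.163) and 0.36 in B64 (adjusted p = 1). Both calls were also lost when single libraries were left out. In B04 this was so without parental replicate A (0.413), B04 replicate A (0.277), B04 replicate B (0.122), B64 replicate A (0.0786) or B64 replicate B (0.0841), and in B64 without parental replicate B (0.294), B64 replicate A (0.11) or B64 replicate B (0.298).

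In the tryptophan route, Ido1 was near 0 while its paralog Ido2 was detected at a low level. Ido2 had normalised counts of 57.2 and 39.3 in the parental line, 93.9 and 97.7 in B04 and 144 and 136 in B64. It was 2.90-fold higher in B64 (log2 fold change 1.53, SE 0.32, adjusted p = 3.71e-05), and its value in B04 was 0.99 (SE 0.32, adjusted p = 0.0125). The B04 call was lost without parental replicate B (0.74, adjusted p = 0.245), B04 replicate A (1.02, 0.116) or B04 replicate B (0.96, 0.148). Under the fragment-length block the values of Ido2 were 1.48 in B64 and 0.96 in B04, with adjusted p of 0.375 and 0.18. Genes that act on kynurenine further down, Kmo and Kynu, had 0 counts in all libraries.

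Ahr, the aryl hydrocarbon receptor that kynurenine can activate, had normalised counts of 430 and 420 in the parental line, 995 and 1016 in B04 and 511 and 572 in B64. It was 2.37-fold higher in B04 than in the parental line (log2 fold change 1.24, SE 0.12, adjusted p = 1.76e-21) and lower in B64 than in B04 by 0.89 (SE 0.12, adjusted p = 1.5e-11). Both of these calls held under all 18 alternatives to the fit. The value in B64 against the parental line was 0.35 (adjusted p = 0.0416), and this call was lost when any library was left out (adjusted p from 0.11 to 0.475). Kyat1, a kynurenine aminotransferase gene, was higher in B64 than in B04 (0.57, SE 0.23, adjusted p = 0.0468), a call also lost without any of the 6 libraries (adjusted p from 0.093 to 0.367).

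In the arginine route, the genes downstream of arginase in polyamine and proline synthesis were expressed although Arg1 and Arg2 were not. Odc1, the ornithine decarboxylase that begins polyamine synthesis, had normalised counts of 24548 and 25705 in the parental line, 27987 and 30161 in B04 and 41031 and 42492 in B64. It was 1.66-fold higher in B64 than in the parental line (log2 fold change 0.73, SE 0.05, adjusted p = 2.16e-39) and 1.44-fold higher than in B04 (0.52, SE 0.05, adjusted p = 2.41e-20). In B04 it was higher than in the parental line by 0.21 (adjusted p = 0.00087), a call lost without B04 replicate B (0.16, adjusted p = 0.0957), under the fragment-length block (0.16, 0.114) and by limma on log2(TPM + 1) without a filter (0.27, 0.0714). Sat1, which acetylates polyamines for breakdown and export, fell by 0.33 in B04 (SE 0.08, adjusted p = 0.000357) and rose by 0.38 in B64 (SE 0.08, adjusted p = 2.33e-05), and it differed between these lines by 0.71 (SE 0.08, adjusted p = 1.55e-17). Under the fragment-length block the value of Sat1 in B64 was 0.40 and was not called (adjusted p = 0.258). Pycr1, a proline synthesis gene, rose in B04 by 0.72 (SE 0.11, adjusted p = 3.3e-10) and in B64 by 0.53 (SE 0.11, adjusted p = 1.62e-05), the latter not called with that block (0.42, adjusted p = 0.548). Otc had 0 counts in all libraries and Ass1 at most 3 in any.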

How the data were processed

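RNA was sequenced from 2 libraries each of parental CT26 and lines B04 and B64. Per the labels' processing notes and the study's methods, the authors used STAR for alignment to mm10 and RSEM for quantification, and the annotation release is not given in the sources used here. The deposited expected count is RSEM's estimate after reads matching several genes are shared among them, and the deposited TPM was scaled by the authors by effective gene length. The deposited RSEM lengths were used for fragment length. FPKM was not used. Symbols matched 99.7% of 53801 gene identifiers in GENCODE M21 (GRCm38, the assembly of mm10), whose coordinates are given.

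Expected counts were rounded and all 6 libraries were fitted in DESeq2 (version 1.42.0, R 4.3.3) with line as the only term, and a gene was called at an adjusted p under 0.05. A line with at most 3 counts in each library was taken to be at the floor. Replicates were not copies (chi-square per degree of freedom 5.09 to 6.81 within lines, 24.8 to 38.7 between lines). Alternatives included edgeR (4.0.16), limma (3.58.1) on log2(TPM + 1) or log2(TPM + 0.1), other normalization, filters, blocks, an effective-length offset and leaving out libraries. Members, lists and tests were chosen with earlier results of these data known. Genes of the surrounding routes were named if called at a mean normalised count of at least 50 and a log2 fold change of at least 0.5 in size, and 11 of 79 met this rule. The fits were tested on simulated counts of B04 against the parental line with 200 changed genes. DESeq2 recovered 96 of 100 genes changed 2-fold and 63 of 100 changed 1.5-fold. Changes near 1.5-fold can thus be missed. Of the DESeq2 calls 7% were false, against 10.1% for edgeR and for limma. In the data 3181 genes were called between B04 and the parental line, more than the 200 changed in the simulation. How far the simulated rates hold for the data was not tested.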

Additional observations from a re-analysis of the deposited data

Results flagged for a closer look

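The effects of the resistant lines, each against the parental line, were compared by the direct DESeq2 test of B64 against B04. They differed for 2 of the 4 expressed enzymes and 8 of the 11 genes named by rule. The naming rule drew on this comparison too, so the 8 of 11 was partly fixed by it and is no measure of the routes. Of all tested genes of the surrounding routes, 19 of 42 were called in that comparison (45.2%), against 24.3% of 12855 genes. Among the enzymes these were Ptgs2, with a log2 difference of 1.23 (B64 higher), and Ptges, with -0.34 (B64 lower). Ptgs2 alone had opposite called effects in the resistant lines among the 10 members. Among the genes of the surrounding routes, P2ry2 (0.87), P2rx7 (0.82), Sat1 (0.71), Kyat1 (0.57) and Odc1 (0.52) were higher in B64, and Ptgr1 (-1.12), Ahr (-0.89) and Adk (-0.35) were lower there. The call of Ptges was lost without B04 replicate B, B64 replicate A or B64 replicate B (adjusted p = 0.113, 0.0868 and 0.0688). Those of Adk, Kyat1 and Ptgr1 were also lost without single libraries, as given above. No group has enough libraries for an outlier to be looked for.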

How the results depend on the processing

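The calls of Ptgs1 and Ptgs2 against the parental line, of Ptges in B04 and of Ptgs2 between B64 and B04 held their direction and side of the threshold under all 18 alternatives to the fit, with Ptgs1 at 0.64 to 0.78 in B04 and 0.54 to 0.63 in B64, and Ptgs2 at -0.79 to -0.64 and 0.47 to 0.66. Ptges in B64 against the parental line was called by edgeR and by DESeq2 on genes with at least 10 counts in 2 libraries (adjusted p = 0.017 and 0.0355), and Ptges between B64 and B04 was not called by limma on log2(TPM + 1) without a filter (-0.48, adjusted p = 0.0666), which left 1 enzyme called there. Ptges2, never called, changed sign in B04 without parental replicate A (-0.049, adjusted p = 0.927). With a minimum of 2-fold, 0, 0 and 1 enzymes were called in B04, in B64 and between B64 and B04. Leaving out single libraries gave 3 to 3, 2 to 2 and 1 to 2 enzymes, the last with 1 without B04 replicate B, B64 replicate A or B64 replicate B. Enzymes counted as expressed were 4 at a mean TPM of at least 1 or 0.1, a definition added after seeing the data.

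Calls among the genes of the surrounding routes were less stable, and the alternatives did not all test the same number of them. In B04 against the parental line 43 were tested in the main fit and 41 under the fragment-length block. Limma on log2(TPM + 1) tested 35 with its filter and 68 without it. Apart from the 2-fold rule, shares of all genes called under these alternatives were not computed, so the counts of calls below stand alone. In the same order of comparisons they were 5, 3 and 11 under the fragment-length block, 8, 8 and 11 with limma on log2(TPM + 1), 8, 8 and 10 on log2(TPM + 0.1), 7, 7 and 8 with limma on log2(TPM + 1) without a filter, 3, 4 and 1 at 2-fold, and 9 in B04 at an adjusted p under 0.01. Leaving out single libraries gave 6 to 14, 10 to 15 and 11 to 16, with 9, 10, 10 and 6 in B04 without parental replicate A, parental replicate B, B04 replicate A or B04 replicate B, 10 in B64 without B64 replicate A, and 11, 12 and 11 between B64 and B04 without B04 replicate B, B64 replicate A or B64 replicate B. Under a replicate block by letter, 3, 2 and 2 enzymes and 13, 15 and 15 genes of the routes were called. Same-lettered libraries deviated together little (correlations of A minus B differences across 10475 genes of 0.20, 0.13 and -0.09), so the letters were not taken to pair the libraries. No enzyme's call changed under that block. The cause of the losses was not tested.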
